A study of Mus musculus with 3 samples.

Results

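The *Gata1*, *Gata2* and *Zfpm1* loci were described in the open chromatin of mouse long-term hematopoietic stem cells (LT-HSCs), as 3 of the 21755 protein-coding genes annotated on chromosomes 1 to 19 and X. The genes were chosen by name: *Gata2*, the related factor *Gata1*, and *Zfpm1*, which encodes the GATA1 cofactor FOG1. Each locus was the gene body in the mm10 (GRCm38) build with 100 kb on either side, divided into 500-bp bins. Cells were kept when they were called as cells and had more than 3000 fragments in peaks, which left 3108 of 3757 called cells (82.7%). The study profiled chromatin, RNA and surface proteins of the same cells to find markers of HSC subtypes, and 1 ATAC library, with no replicate, gave the values here. The cells came from the bone marrow of Wild-type C57BL/6 mice (C57BL/6J in the paper), which were female and 8 weeks old. They were enriched for c-Kit on beads and sorted as LSK CD48− CD150+ CD34− cells. The labels did not give the number of mice, and the samples analysed held no other genotype, age or treatment.

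GATA factors bind short DNA sites and act with partners that include TAL1, LYL1, LMO2, LDB1 and the E proteins. GATA2 maintains hematopoietic stem and progenitor cells, and GATA1 takes over many of its sites as cells become erythroid or megakaryocytic, a change in which FOG1 is a partner of GATA1. *Gata2* transcription depends on enhancers within the gene and far upstream of it, which are named by their distance in kb from the upstream (1S) start.

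The kept cells held 37137164 fragments on chromosomes 1 to 19 and X, counted by their midpoints. A kept cell had 3970 fragments at the lowest, 11442 at the median and 194134 at the highest. The mean of all 5267565 bins was 7.05 fragments. Each fragment was supported by 4.50 read pairs on average, and 45.6% of fragments were shorter than the DNA of a nucleosome. Ranges in parentheses are exact 95% intervals, Poisson for counts and their ratios and Clopper-Pearson for shares of cells, and they cover counting error only.

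The stem cell label was compared with marker promoters, each counted within 500 bp of the gene's principal start. The median of all protein-coding genes was 225 fragments. Of 10 HSC markers, 7 lay above it, with a list median of 446 fragments, the highest at *Hlf* (1700) and the lowest at *Ly6a* (32). Megakaryocyte markers were also open, with 4 of 6 above the median of all genes and a list median of 613 fragments. None of the 7 erythroid, 5 mast cell and basophil, 7 neutrophil and monocyte, 5 B cell or 5 T and NK cell markers lay above it. Their list medians were 30.0, 11.0, 29.0, 30.0 and 4 fragments in that order. Among 6 markers of endothelium and other tissue, 2 lay above it, the highest of them *Kdr* at 341 fragments. The sorting marker *Slamf1*, which encodes CD150, was below it at 99 fragments, as was *Procr* at 175. With the highest annotated start of every gene, whose median over all genes was 282, 6 of 10 HSC, 4 of 6 megakaryocyte, 1 of 7 erythroid (*Epor*, 499) and 1 of 5 B cell markers (*Pax5*, 687) lay above it. The HSC and megakaryocyte counts were thus not far from the even division that defines a median, whereas few markers of the other blood lineages lay above it.

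The *Gata1* locus (chromosome X, 7859001 to 8078500, gene on the minus strand) held 7110 fragments, 2.30 times the genome mean per bin (2.24 to 2.35). The *Gata2* locus (chromosome 6, 88093501 to 88307500, plus strand) held 16993 fragments, 5.63 times the mean (5.55 to 5.72). The *Zfpm1* locus (chromosome 8, 122182001 to 122437500, plus strand) held 28867 fragments, 8.01 times the mean (7.92 to 8.11). The order *Zfpm1*, *Gata2*, *Gata1* was separated beyond counting error at each step on this scale.

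The median locus of all protein-coding genes, measured the same way, was at 1.81 times the genome mean. *Gata1* lay at percentile 58.7 of all gene loci, *Gata2* at 89.0 and *Zfpm1* at 96.3. Chromosome X as a whole was low, at 0.289 times the genome mean per bin, and the median locus of its 948 genes was at 0.393. Against X-linked genes alone, the *Gata1* locus was at percentile 92.6. With each chromosome's own mean in place of the genome mean, the levels were 7.94 for *Gata1*, 6.43 for *Gata2* and 7.29 for *Zfpm1*, so the order of the loci rested on the reference used. The *Gata1* locus was therefore middling against the genome and high for its chromosome.

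At least 1 fragment of the *Gata1* locus was found in 83.6% of kept cells (82.2 to 84.8). The share was 97.5% for *Gata2* (96.9 to 98.0) and 99.6% for *Zfpm1* (99.3 to 99.8). The loci are large, so these shares describe sampling of the whole region and not the state of a promoter.

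A bin was called open at 10 times the genome mean or more. In the genome, 73242 bins passed, 1.39% of all bins. The *Gata1* locus had 15 open bins of 439 (3.42%), the *Gata2* locus 45 of 428 (10.5%) and the *Zfpm1* locus 62 of 511 (12.1%), against a median of 2.59% over all gene loci. On chromosome X, 0.392% of bins passed the same threshold, and 1.02% passed 10 times the chromosome's own mean.

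The loci also differed in where the fragments lay. The *Gata1* gene body held 254 fragments, 3.57% of its locus and 13.5 per kb. The *Gata2* body held 5889 fragments, 34.7% of its locus and 448 per kb. The *Zfpm1* body held 8889 fragments, 30.8% of its locus and 161 per kb. Nearly all signal in the *Gata1* locus thus lay outside *Gata1*, whereas *Gata2* and *Zfpm1* each held a large share within the gene.

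**Figure D1:**
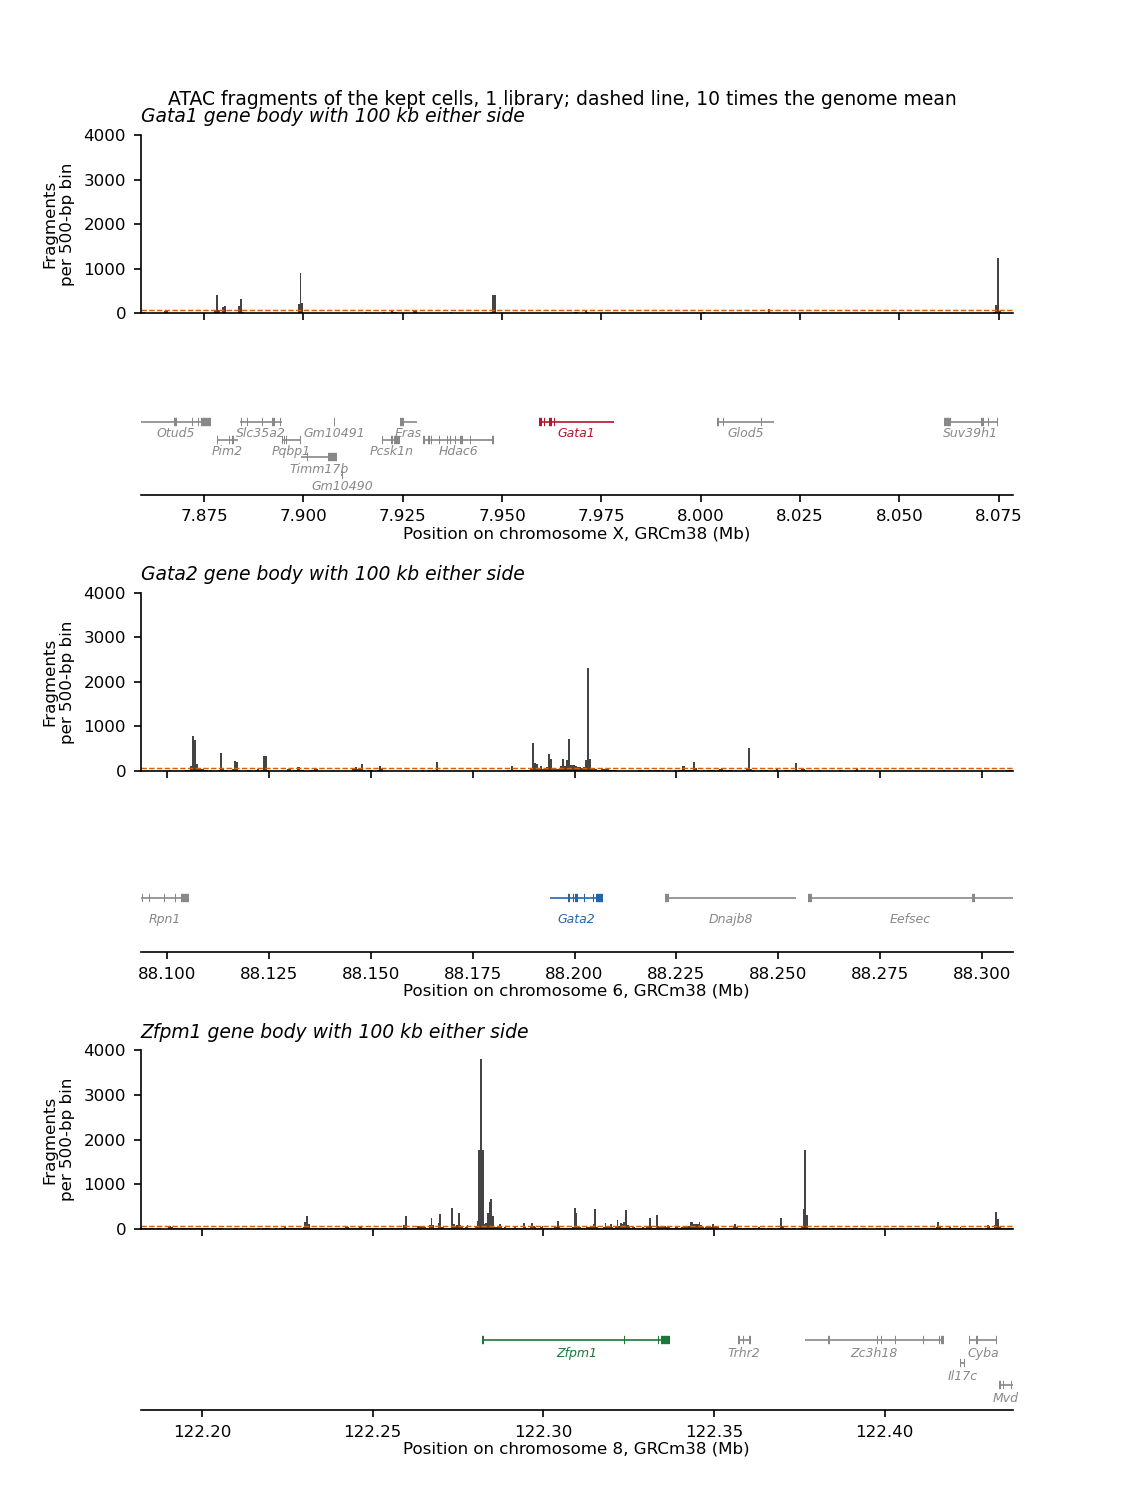
ATAC fragments per 500-bp bin (vertical axis, same scale in each panel) along the *Gata1*, *Gata2* and *Zfpm1* loci (horizontal axis, Mb), with gene models below and a dashed line at 10 times the genome mean; the readthrough model *Gm20388* is not drawn. The highest bins reach 1240 fragments at the start of *Suv39h1* in the *Gata1* locus, 2301 within *Gata2* and 3809 at the *Zfpm1* start.

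Promoters were counted within 500 bp of each annotated protein-coding start. The erythroid-type (IE) start of *Gata1*, at 7967910, had 30 fragments, or 0.808 FPM, fragments for every 1000000 fragments of the kept cells (0.545 to 1.15). Its other starts had 18 fragments (7964166) and 3 fragments (7978071, the testis-type IT start). A bin-wide mean level would give 14.1 fragments in a window of this size. The IE start was thus 2.13 times the genome mean, at percentile 33.6 of all genes and 52.1 of X-linked genes.

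The *Gata2* 1S start, at 88193891, had 635 fragments, or 17.1 FPM (15.8 to 18.5). The 1G start, at 88198334, had 903 fragments, or 24.3 FPM (22.8 to 26.0). The 1G start was 1.42 times the 1S start (1.28 to 1.58), a modest difference beyond counting error. Against the principal starts of all genes, they were at percentiles 67.1 and 74.2. Against the highest start of every gene, the 1G start was at 72.1. Neither *Gata2* promoter was thus among the most open.

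The *Zfpm1* start, at 122282141, had 4903 fragments, or 132 FPM (128 to 136). It lay at percentile 99.6 of all genes. A fragment at this start was found in 75.6% of kept cells (74.0 to 77.1), against 22.8% at the 1G start (21.3 to 24.3), 16.6% at the 1S start (15.3 to 18.0) and 0.965% at the IE start (0.652 to 1.38). The cofactor promoter was therefore by far the most often sampled of the set.

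Between promoters, the 1S start was 21.2 times the IE start (14.7 to 31.6) and the 1G start 30.1 times (20.9 to 44.9). The *Zfpm1* start was 163 times the IE start (114 to 242) and 5.43 times the 1G start (5.06 to 5.84). The gap between both GATA genes was wide at the promoter, although their whole loci differed far less. The cofactor of GATA1 was open at its start in a library in which the *Gata1* start was far under the open threshold.

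The positions known for *Gata2* were looked up by their distance from the 1S start, and the highest of the bin at that distance and the bin on either side of it was taken. The +9.5 position, in intron 4 of the 1G transcript (chromosome 6, 88203001 to 88203500), had 2301 fragments (2208 to 2397), 326 times the genome mean. It was found in 49.3% of kept cells (47.5 to 51.1). It was the highest bin of the *Gata2* locus and ranked 749 among all bins of the genome.

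The other positions had lower levels. The bin of the −3.9 position had 639 fragments (590 to 691), 90.6 times the genome mean, in 17.3% of cells. The far upstream −77 position had 234 fragments (205 to 266), 33.2 times the mean, in 6.21% of cells. For the −2.8 position the value was 152 fragments (129 to 178) and for the −1.8 position 107 (87.7 to 129), both from the bin beside the one that holds the coordinate, at −3.14 and −2.14 kb. The bins that hold these coordinates had 72 and 55 fragments, and the latter was under the open threshold. The order was thus led by the intronic +9.5 position, and the −1.8 position was open only by its neighbouring bin.

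The +9.5 bin was 3.18 times the strongest bin at either *Gata2* start, which had 724 fragments (ratio interval 2.92 to 3.46). At *Gata2* the strongest open chromatin was therefore an intronic enhancer and not a promoter. With bins moved by 250 bp, which splits the sites differently, the ratio was 2.03 (1.86 to 2.23).

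Further open sites of the *Gata2* locus lay outside the known positions. The strongest was upstream by 87.64 kb, with 794 fragments at its highest bin (88106001) in 21.3% of cells, and so stood above the −77 position. Others were at −80.64 kb (402 fragments), −69.64 kb (344) and +48.86 kb (523), the last within the annotated body of *Dnajb8*. Open bins with at most 1 bin between them formed 16 sites, but the +9.5 position and the 1G start fell into a single site. Local maxima, open bins not lower than any within 2 bins on either side, were therefore counted instead, a choice made after seeing the data. The locus had 19 of them, of which 2 were at a *Gata2* start, 2 elsewhere in the *Gata2* body and 15 outside it. The far upstream side thus held a group of open sites. By highest bin −77 was the lowest of those named, but it lay across bins of 234 and 191 fragments, so this order depends on bin edges.

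**Figure D2:**
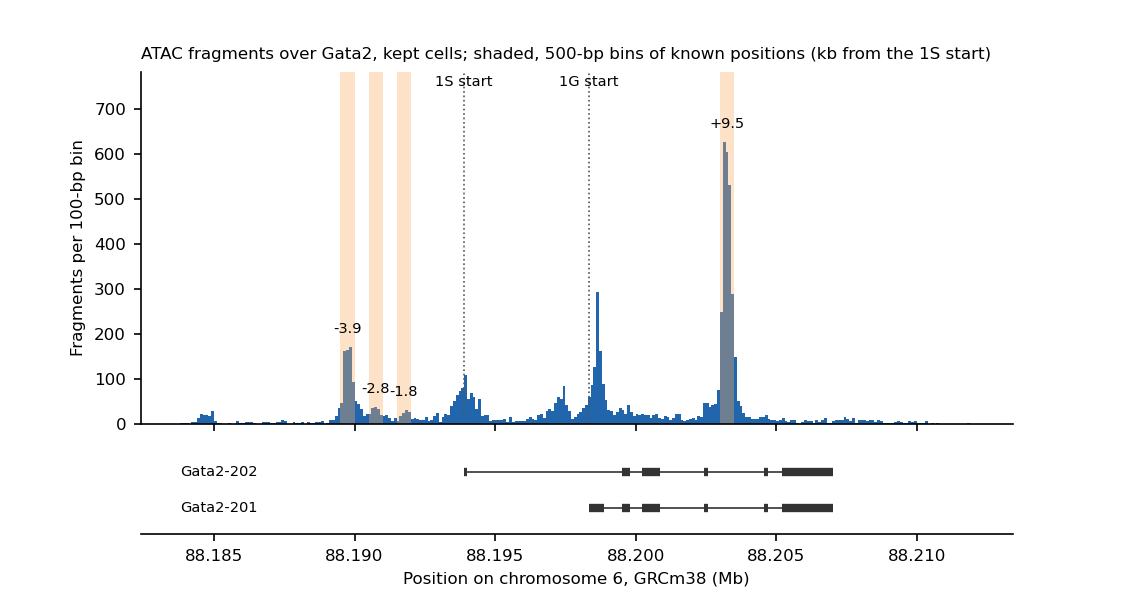
ATAC fragments per 100-bp bin (vertical axis) over *Gata2* (horizontal axis, Mb), with the 500-bp bins taken for known positions shaded, dotted lines at the starts and both transcripts below. The +9.5 bin holds 2301 fragments, against 903 within 500 bp of the 1G start and 635 at the 1S start.

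The positions known for *Gata1* were looked up from the IE start in the same way. The −3.5 position had 50 fragments (37.1 to 65.9), 7.09 times the genome mean, in 1.35% of cells. The +3.5 position in intron 1 had 13 fragments (6.92 to 22.2) and the −25 position 6 (2.20 to 13.1). None reached the open threshold. The −3.5 position stood highest among these positions and the *Gata1* starts.

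None of the 9 open maxima (and 9 joined sites) of the *Gata1* locus lay at a *Gata1* start or in its body. Of the maxima, 4 lay outside the body and at no start, and the gene they act on was not tested. At starts of other genes, 5 were found, led by *Suv39h1* with 1240 fragments in its highest bin and the shared start of *Pqbp1* and *Timm17b* with 902. The start of *Hdac6*, the nearest of these, had 813 fragments within 500 bp. Of 11 other protein-coding starts in the locus, 8 were above the IE start, and their median was 491 fragments. The strongest bin away from any start had 175 fragments, in intron 3 of *Pim2*, 6.03 times the highest *Gata1* start bin of 29 fragments (4.06 to 9.28). This ratio was 10.9 with bins moved by 250 bp, 10.2 with short fragments and 2.83 with bins more than 2000 bp from any start. With the mean of chromosome X in place of the genome mean, 17 maxima passed, 1 of them at a *Gata1* start and 1 elsewhere in its body. On the upstream side, the nearest protein-coding start was that of *Glod5* at −50.6 kb with 9 fragments. The open neighbouring promoters thus lay mostly on the downstream side of *Gata1*.

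The *Zfpm1* locus had its highest bin at the *Zfpm1* start (122281501), with 3809 fragments, 540 times the genome mean, in 67.8% of cells. It ranked 85 among all bins. Of 30 maxima past the threshold, in 26 joined sites, 1 was at this start, 2 were at other starts, 13 elsewhere in the *Zfpm1* body and 14 outside it. The body sites were led by one at 2.61 kb, with 668 fragments, followed by sites at 27.11 kb (475), 33.11 kb (441) and 42.11 kb (412). Upstream, a site at −8.89 kb had 462 fragments. The annotated readthrough gene *Gm20388* covers the whole locus, so sites outside *Zfpm1* still lie within a gene model.

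The strongest *Zfpm1* bin away from any start had 1765 fragments, 0.463 times the start bin (0.438 to 0.490), and was the bin beside it. With bins more than 2000 bp from any start, an alternative chosen after seeing the data, the ratio was 0.175. *Zfpm1* was thus led by its promoter with many weaker intronic sites, the opposite order from *Gata2*. The nearest strong start of another gene was that of *Zc3h18* with 2369 fragments, and *Cyba*, which encodes a subunit of the phagocyte oxidase, had 596.

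The bases under these sites were read from the reference to show what the strongest site shares with the weaker ones. Motifs were searched on both strands. The GATA motif was spelled as AGATAA or TGATAA, the E-box as CANNTG and their composite as CTGNNNNNNNNAGATAA. The ETS motif was spelled as AGGAAG or CGGAAG, the RUNX motif as TGTGGT and the AP-1 motif as TGACTCA or TGAGTCA. The composite contains a GATA match and can overlap an E-box. A match is a description, not a site or a cause. In the central 300 bp, GATA was found in 33.8% of all bins and 16.5% of open bins, and E-box in 80.0% and 72.7%. ETS was found in 31.9% and 46.0%, RUNX in 20% and 19.3%, AP-1 in 4.66% and 5.28%, and the composite in 0.339% and 0.399%. The composite was therefore the rare one, whereas a GATA or E-box match alone was common.

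The +9.5 position held a composite, shown first, with E-box and GATA matches in capitals and the composite in capitals throughout (chr6:88203101-88203400, GRCm38, plus strand, GC share 41.7%). The window read for the −77 position, the centre of its bin, held neither a GATA nor an E-box match. The coordinate itself, 88116891, lies near the edge of this window, and the open site runs on to 88117500 with 191 fragments in the next bin, which was not searched. In the window, ETS matches, here on the minus strand, are in capitals (chr6:88116601-88116900, plus strand, GC share 58.0%). They are printed whole because the first was the most open bin of the locus and the second is the known far upstream enhancer.
Gata2 +9.5: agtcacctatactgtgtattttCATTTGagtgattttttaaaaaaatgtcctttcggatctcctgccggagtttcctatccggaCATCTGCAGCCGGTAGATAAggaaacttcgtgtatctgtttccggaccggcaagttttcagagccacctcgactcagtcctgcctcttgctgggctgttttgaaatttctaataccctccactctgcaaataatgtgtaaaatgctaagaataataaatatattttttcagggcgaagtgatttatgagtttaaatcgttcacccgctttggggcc
Gata2 −77: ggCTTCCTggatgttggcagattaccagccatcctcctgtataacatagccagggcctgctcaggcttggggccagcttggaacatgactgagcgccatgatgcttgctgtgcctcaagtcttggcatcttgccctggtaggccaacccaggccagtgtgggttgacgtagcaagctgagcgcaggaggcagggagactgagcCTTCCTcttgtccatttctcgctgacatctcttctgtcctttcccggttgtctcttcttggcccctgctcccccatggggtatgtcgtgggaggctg

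Composites were also found in the bins taken for the −2.8 and −1.8 positions, at −3.1 and −2.03 kb from the 1S start. None was found in the other windows searched, which left out the sites at −69.64 kb of *Gata2* and 2.61 kb of *Zfpm1*. Each is given with 20 bases on either side, plus strand, with the composite in capitals, since these windows share the spelling (chr6:88203168-88203224, chr6:88190770-88190826 and chr6:88191838-88191894).
+9.5: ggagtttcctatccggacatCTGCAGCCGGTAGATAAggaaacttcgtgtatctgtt
−2.8: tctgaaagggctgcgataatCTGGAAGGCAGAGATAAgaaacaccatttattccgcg
−1.8: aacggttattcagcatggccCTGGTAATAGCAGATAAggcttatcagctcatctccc
These bins held 2301, 152 and 107 fragments in that order. The same arrangement of letters was thus found in the most open and the least open bin taken for the known *Gata2* positions.

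Both ends of each fragment mark where the transposase cut. The 17 bases of the +9.5 composite held 298 cut sites, 17.5 per base, against 7.78 per base in the 50 bases on each side. The ratio was 2.25 (1.96 to 2.58). Cuts were thus denser inside the composite than beside it, although base preference of the transposase was not tested. At the −2.8 and −1.8 composites, 9 and 13 cut sites were too few to show a difference.

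Promoter sequences came from RefSeq in the build GRCm38.p6 and matched each of the 3 genes, with 2 entries for *Gata2*. Of 32851 promoters of this length, 18.6% held a GATA match, 46.5% an ETS match and 72.3% an E-box. No GATA match was found in the 4 entries. The principal ones are printed with ETS matches in capitals, since the promoters differ so widely in openness: *Gata1* (chrX:7967861-7968160, minus strand), *Gata2* 1S (chr6:88193641-88193940, plus strand) and *Zfpm1* (chr8:122281891-122282190, plus strand).
Gata1: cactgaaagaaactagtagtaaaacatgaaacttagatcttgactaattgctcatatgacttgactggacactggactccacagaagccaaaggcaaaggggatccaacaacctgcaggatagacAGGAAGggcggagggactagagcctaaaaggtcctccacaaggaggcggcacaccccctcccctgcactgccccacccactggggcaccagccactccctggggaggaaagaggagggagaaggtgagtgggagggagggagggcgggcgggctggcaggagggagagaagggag
Gata2 1S: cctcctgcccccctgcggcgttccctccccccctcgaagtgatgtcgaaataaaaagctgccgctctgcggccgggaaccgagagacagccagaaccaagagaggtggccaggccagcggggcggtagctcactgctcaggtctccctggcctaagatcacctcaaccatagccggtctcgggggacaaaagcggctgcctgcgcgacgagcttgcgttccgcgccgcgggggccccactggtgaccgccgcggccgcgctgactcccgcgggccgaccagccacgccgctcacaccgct
Zfpm1: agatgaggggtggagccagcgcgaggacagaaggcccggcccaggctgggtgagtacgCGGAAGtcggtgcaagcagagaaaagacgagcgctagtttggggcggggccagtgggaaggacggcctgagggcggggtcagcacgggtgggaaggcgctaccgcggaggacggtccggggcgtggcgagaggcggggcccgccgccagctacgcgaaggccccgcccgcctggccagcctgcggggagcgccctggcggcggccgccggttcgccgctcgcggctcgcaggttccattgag
The GC share was 57.3% for *Gata1*, 69.3% for *Gata2* 1S, and 73.7% for both *Zfpm1* and the other *Gata2* entry, so promoters of equal GC share differed in openness.

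Related genes were compared by the same promoter count. Among 8 GATA and FOG family genes the median was 258 fragments, 5 lay above the median of all genes, *Zfpm1* was the highest and *Gata1* the lowest. *Gata6*, known for heart and gut, had 554 fragments, close below *Gata2*. An open promoter in this family was therefore not limited to the factors known from blood.

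Among 16 partners of GATA factors the median was 950 fragments, and 12 lay above the median of all genes. *Lyl1*, a stem cell partner related to TAL1, was the highest at 4507, and *Erg* the lowest at 1. With the highest annotated start of every gene, the median of all genes was 282 fragments, 15 of the 16 partners lay above it, and the lowest was *Klf1* at 71. The partners were thus mostly open at some start, with the erythroid factor *Klf1* as the exception, and the low value of *Erg* held for its principal start only.

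Targets of GATA1 were taken by lineage. Of 13 erythroid targets, 11 were found in the annotation, with a median of 18.0 fragments, and 1 lay above the median of all genes, the transferrin receptor gene *Tfrc* at 2525. The lowest was the alpha-globin gene *Hba-a1* at 3. Of 12 megakaryocyte targets, 7 lay above it, with a median of 410, from *Ppbp* at 33 to the integrin gene *Itga2b* at 1003. Of 11 GATA2 targets and stem cell factors, 10 lay above it, with a median of 1259, the highest being *Zfpm1* itself and the lowest *Cd34* at 198. This list shares *Tal1*, *Lyl1*, *Runx1* and *Fli1* with the partners. With the highest annotated start of every gene, 3 of 11 erythroid targets lay above the median of all genes (282), with a list median of 48.0, and *Hemgn* rose from 17 to 934. By that count the megakaryocyte targets stayed at 7 of 12, the GATA2 targets and stem cell factors at 10 of 11, and the family was at 4 of 8. Most erythroid targets were thus low by either count, and the megakaryocyte targets were divided about evenly by the median.

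**Figure D3:**
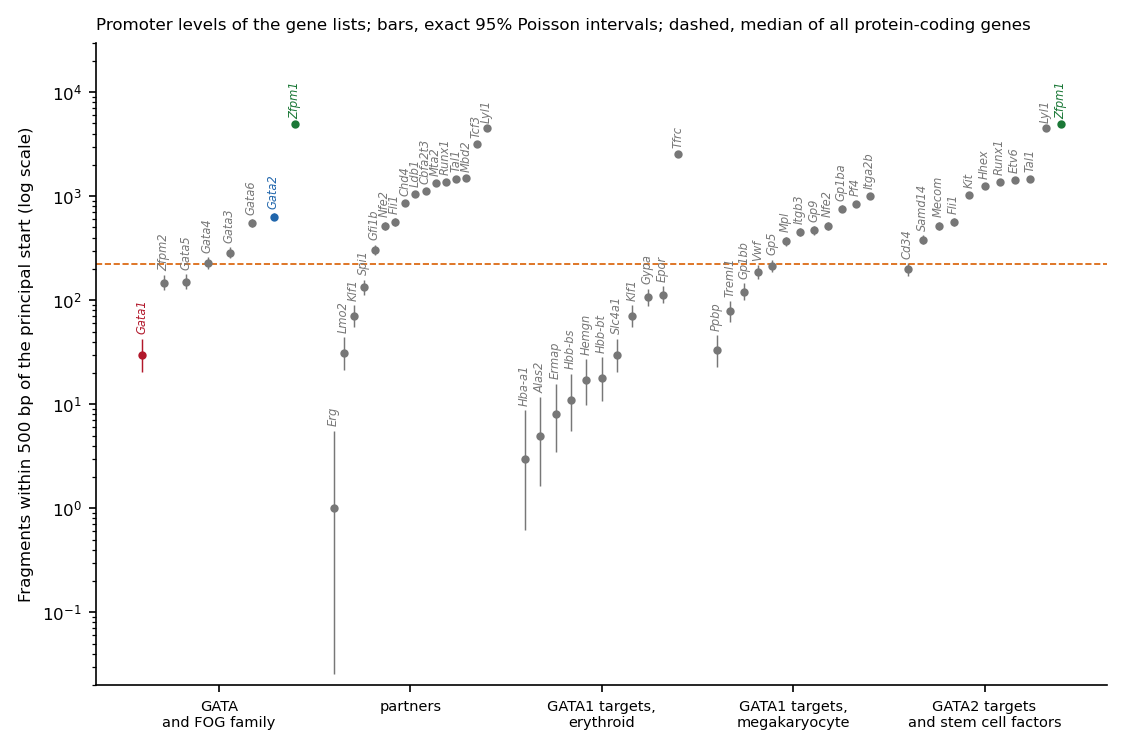
Fragments within 500 bp of the principal start (log scale) for the genes of each list, with exact 95% Poisson intervals and a dashed line at the median of all protein-coding genes, 225. *Gata1* at 30 lies among the erythroid targets, *Gata2* at 635 among the megakaryocyte targets, and *Zfpm1* at 4903 is the highest of the genes shown.

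Likeness was taken by promoter count over the 51 genes of the family, partner and target lists, without the marker lists. Nearest to *Gata1* were *Hbb-bt* (18) and *Slc4a1* (30) at or below it and *Lmo2* (31) and *Ppbp* (33) above it. None of these 4 differed from *Gata1* beyond counting error. *Lmo2* had 846 fragments at its highest annotated start, so its likeness holds for the principal start only. Nearest to *Gata2*, at 635 fragments, were *Gata6* (554) and *Fli1* (565) below it and *Gp1ba* (758) and *Pf4* (846) above it, each different beyond counting error. Nearest to *Zfpm1* were *Lyl1* (4507) and *Tcf3* (3186), with none above. The marker lists held genes as near, *Ly6a* and *Hdc* (32 each), *Cd79a* (30) and *Elane* (29) to *Gata1* and *Hoxb5* (767) to *Gata2*. This likeness is of level in 1 library and is not limited to GATA targets and partners.

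Depth bore unevenly on these sites. Kept cells were divided into tertiles by fragments, with medians of 8110, 11442 and 14557. The *Zfpm1* locus stayed level at 781, 774 and 778 FPM. The +9.5 bin fell from 73.3 through 65.9 to 54.0 FPM, and the *Zfpm1* start from 152 through 143 to 115. The −77 bin was at 5.34, 4.81 and 7.77.

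The high tertile over the low was 0.737 at the +9.5 bin (0.664 to 0.819), 0.759 at the *Zfpm1* start (0.707 to 0.816) and 1.46 at the −77 bin (1.03 to 2.10). For the 1000 highest bins of the genome the median of this ratio was 0.811, and 992 of them were below 1. Percentiles 5 and 95 of the ratio over these 1000 bins were 0.728 and 0.928. The fall at the +9.5 bin and the *Zfpm1* start was thus shared with strong bins in general. Both ratios lay toward the low end of that range, with intervals that held the median. Over all open bins, percentiles 5 and 95 of the ratio were 0.676 and 1.56, and the −77 value lay between them.

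Cells with 2 or more fragments at a site were compared with the number that depth alone would give. The +9.5 bin had 536 such cells against 533. The −77 bin had 32 against 9.83, the −3.9 bin 87 against 63.7, the 1G start 151 against 118 and the 1S start 92 against 63.0. The *Zfpm1* start had 1437 against 1381. The variance of the counts over the expected was 1.17 at +9.5, 1.34 at −77, 1.13 at −3.9, 1.23 at 1G, 1.27 at 1S and 1.2 at the *Zfpm1* start. By variance each of these sites was thus somewhat above what depth gives, with −77 the highest, and +9.5 did not stand apart.

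Pairs of sites were found in the same cell about as often as depth alone would give. Cells with both the +9.5 bin and the 1G start numbered 360 against 375, a ratio of 0.960 (0.863 to 1.06). For +9.5 with the 1S start the ratio was 0.996 (0.882 to 1.12), with −77 it was 0.860 (0.690 to 1.06), and with the *Zfpm1* start 0.985 (0.930 to 1.04). The ratios of the 7 pairs examined were all below 1, from 0.860 to 0.996, and none departed from it beyond counting error.

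The cells with a −77 fragment (193) were set against those without (2915). Their median depth was 12999 against 11337 fragments, so levels were taken in FPM. Marker levels here and in the next paragraph were counted over a wider region of each gene than the promoter window. HSC markers held 3335 fragments in the cells with a −77 fragment and 38406 in the others. Markers of HSCs were at 1140 against 1123 FPM, a ratio of 1.02 (0.980 to 1.05), and erythroid markers had a ratio of 1.06 (0.934 to 1.19). Megakaryocyte markers had a ratio of 1.14 (1.05 to 1.22), which was 1.05 (0.948 to 1.16) without the 10% deepest cells. The T and NK cell markers had a ratio of 1.31 (1.09 to 1.58), which was 1.14 (0.871 to 1.47) without them. The *Gata1* body with 2000 bp upstream had a ratio of 1.59 (1.06 to 2.32), which was 1.53 (0.855 to 2.55) without them. The +9.5 bin had a ratio of 0.821 (0.692 to 0.969), which was 0.905 (0.733 to 1.11) without them. The cells with a −77 fragment thus did not differ in HSC or erythroid marker chromatin beyond counting error, and each of the other differences named lay within counting error without the deepest cells.

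The 203 cells with a fragment in the *Gata1* body or 2000 bp upstream had 50.9 FPM at the +9.5 bin, against 63.0 in the other 2905 cells. The ratio was 0.808 (0.685 to 0.948), and 0.791 (0.636 to 0.972) without the 10% deepest cells. Erythroid markers had a ratio of 1.05 (0.939 to 1.18) in the same split and megakaryocyte markers 1.04 (0.961 to 1.12). HSC markers had a ratio of 0.969 (0.936 to 1.00), which was 0.998 (0.954 to 1.04) without the deepest cells. B cell markers had a ratio of 1.14 (1.04 to 1.24), which was 0.919 (0.809 to 1.04) without the deepest cells. Cells sampled in *Gata1* were deeper, with a median of 12969 fragments against 11337, and the +9.5 level itself fell with depth, so the part of depth in this difference was not tested. The *Zfpm1* body with 2000 bp upstream, which takes in its promoter, had a ratio of 1.06 (1.00 to 1.12), and 1.09 (1.02 to 1.17) without the deepest cells. In the reverse comparison, cells with a +9.5 fragment were set against those without. The *Gata1* body with 2000 bp upstream had a ratio of 0.943 (0.734 to 1.21), and 0.705 (0.521 to 0.950) without the deepest cells. Both comparisons count the same joint occurrence in the same cells, so the reverse one adds no support. B cell markers had a ratio of 0.939 (0.893 to 0.989) in the reverse comparison, and 0.961 (0.907 to 1.02) without the deepest cells. No shift in erythroid marker chromatin was detectable.

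The study classes HSCs by output into platelet-biased (PLT) and multilineage (MUL) kinds. To see whether the loci moved along that axis, cells were ranked by the share of PLT genes in the fragments on PLT and MUL genes. This was not the measure of the study, which classed clusters of the cells by chromatin signatures of clones. The genes used here were those whose RNA differed between clones of these kinds in the study. Of 129 such genes, 63 PLT and 56 MUL genes were used. The outer tertiles had 1036 cells each, at or below 56.5% and at or above 63.0% on PLT genes. The share rests on a median of 70 fragments per cell, and 1436 and 1440 cells lay within 5 percentage points of the bounds, so it is a range and not a cell type.

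Whole loci differed little. The log2 difference, high minus low PLT share, was −0.12 for *Gata1* (−0.21 to −0.04), 0.00 for *Gata2* (−0.06 to 0.05) and −0.06 for *Zfpm1* (−0.10 to −0.02). Called as 1.2-fold either way, 0 of 3 passed, against 2.01% of the 19063 loci with enough fragments, 1.31% higher and 0.703% lower. Without the 10% deepest cells, *Gata1* was at −0.05 (−0.14 to 0.04) and *Zfpm1* at −0.02 (−0.07 to 0.02), and with thinning to 3000 fragments per cell *Gata1* was at −0.19 (−0.35 to −0.02) and *Zfpm1* at 0.04 (−0.05 to 0.12). None of the loci thus differed by the size that was called. With short fragments *Gata1* was at −0.07 (−0.19 to 0.04) and *Zfpm1* at −0.04 (−0.10 to 0.02), and with 2 read pairs *Zfpm1* was at −0.03 (−0.07 to 0.02). The small difference of *Gata1* thus reached 0 without the deepest cells and with short fragments, and that of *Zfpm1* reached 0 under each of these alternatives.

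Over the gene body with 2000 bp upstream, the difference was 0.15 for *Gata2* (0.06 to 0.24) and −0.03 for *Zfpm1* (−0.09 to 0.02), and 0 of these 2 were called. The background was 6.27% of 13765 genes, 2.49% higher and 3.78% lower. It was taken over all protein-coding genes, and those whose fragments set the ranking move by construction. Among these, 47 of 47 PLT genes were higher and 0 of 44 MUL genes. *Gata1* had 90 fragments in the low and 54 in the high tertile, a difference of −0.68 (−1.20 to −0.18), under the minimum of 300 fragments for a call. *Gata1* lay at percentile 0.1 of the genes that could be called over the body, and 5.90 over the whole locus. Genes that could be called had at least 300 fragments, so counting error alone can place a gene with fewer at an extreme percentile. The body percentile is thus no measure of how low *Gata1* was, and neither of the members that could be called passed.

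Among the *Gata2* sites, the +9.5 bin had 59.9 FPM in the low and 67.6 in the high tertile, a log2 difference of 0.17 (0.03 to 0.32). The −77 bin had 8.22 and 5.32, a difference of −0.63 (−1.11 to −0.16). The 1S start was at −0.05 (−0.34 to 0.23), the 1G start at 0.04 (−0.20 to 0.28) and the *Zfpm1* start at 0.03 (−0.08 to 0.13). The +9.5 difference was under 1.2-fold and the −77 bin was under 300 fragments, so neither passed the call, although their intervals lay on opposite sides of 0. With 15 positions compared and no replicate, these values are a description.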

How the data were processed

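Fragments of 1 ATAC library were analysed. The authors deposited fragment counts (read pairs behind each unique fragment) and, per barcode, fragment and UMI counts from cellranger-arc 2.0.2 with an mm10 reference; is_cell in the deposited barcode table is another unit, 1 for a called cell. The cell call was made jointly from ATAC and RNA. No other value given here used the RNA library, the protein library was not used, and 23 value columns were left out. Fragments were assigned by midpoint to 500-bp bins. Midpoints within 500 bp of a start made up its promoter count, principal transcripts coming from the reference annotation. No tests were run, since there was no replicate. Doublets were kept, with an alternative without the 10% deepest cells. From the study's table of clone genes, only the sign was used. The members and lists were chosen with earlier results of these data known. The rule for naming covered all members, their starts and known positions, and the nearest genes in level. It also covered the 5 strongest sites and 3 strongest neighbouring starts of each locus, and the highest and lowest gene of each list. Not all of these sites, starts and list extremes are named, and other genes were named after their values were seen. Alternatives covered the cells kept, read support, fragment length, cut sites, thinning to 3000 fragments, bin position, open threshold, the mean used, promoter width and start, distance from starts, and the region and division of the PLT comparison. The functions were tested on simulated data. Python 3.11.15, numpy 2.4.6, scipy 1.17.1, pandas 2.3.3 and matplotlib 3.10.9 were used.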

Additional observations from a re-analysis of the deposited data

How the results depend on the processing

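Each of 18 values, 6 for each gene, was recomputed under each alternative that applied, 162 values in all. Of these, 107 stayed within the interval of the reported value (for counts of open bins, within 1.5 times), 55 moved and 0 changed sign past a call. The order *Zfpm1*, *Gata2*, *Gata1* of promoter levels held under every alternative run for it, which did not include the mean of the same chromosome. The causes of the changes below were not tested beyond what each alternative changes by construction.

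With the mean of the same chromosome, locus levels were 7.94 for *Gata1*, 6.43 for *Gata2* and 7.29 for *Zfpm1*, so *Gata1* became the highest, and *Gata1* had 35 open bins. Short fragments gave locus levels of 2.67 for *Gata1* and 8.44 for *Zfpm1*, and support by 2 read pairs gave 2.37 for *Gata1*. At 5 times the genome mean, open bins numbered 24, 74 and 115 for *Gata1*, *Gata2* and *Zfpm1*. At 20 times they numbered 25 for *Gata2* and 33 for *Zfpm1*.

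Promoter levels in FPM for *Gata1*, *Gata2* and *Zfpm1*, were 0.269, 10.6 and 80.5 within 250 bp and 1.45, 22.7 and 198 within 1000 bp, where the window itself differs. Short fragments gave 0.532, 13.4 and 191, and thinning to 3000 fragments per cell gave 0.536, 18.6 and 136. For *Zfpm1*, the level was 138 without the 10% deepest cells, 138 with 2 read pairs and 120 from cut sites. The start with the most fragments, an alternative chosen after seeing the data, gave 24.3 for *Gata2*.

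The ratio of the strongest bin away from starts to the own start was 10.9, 2.03 and 0.188 for *Gata1*, *Gata2* and *Zfpm1* with bins moved by 250 bp. It was 10.2, 3.58 and 0.491 with short fragments, 3.57 for *Gata2* with 2 read pairs, and 9.83 for *Gata1* after thinning. With bins more than 2000 bp from starts, also chosen after seeing the data, it was 2.83 for *Gata1* and 0.175 for *Zfpm1*.

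The percent of cells with a fragment in the locus of *Gata1*, *Gata2* and *Zfpm1* was 73.6, 89.6 and 93.6 over all 3757 called cells, 78.7, 95.7 and 99.1 with 2 read pairs, and 64.4, 87.0 and 96.5 with short fragments. After thinning it was 42.6, 72.8 and 88.1, and without the 10% deepest cells it was 82.1 for *Gata1*. These shares therefore follow depth.

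The log2 difference along the PLT share was −0.68 for *Gata1* and 0.15 for *Gata2* over the gene body with 2000 bp upstream. After thinning it was 0.07 for *Gata2* and 0.04 for *Zfpm1*. A minimum of 15% of fragments in peaks kept the same number of cells, 3108. The cause was not tested.

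With 1 library, differences between mice could not be measured, and no paired analysis was possible because no sample has a partner. A fragment count of 0 in 3108 cells would not show a closed site. The *Gata1* start rests on 30 fragments, so changes there smaller than its interval cannot be seen. Shares of cells follow depth, and a site open in every cell is still missed in many.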
